A study of Mus musculus with 20 samples.

Results

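Mitochondrial ribosomal protein genes are the nuclear genes whose symbol is Mrpl or Mrps followed by a number and at most a further letter. By that rule 78 of the 21326 genes in each deposited table are members, 49 named Mrpl for the large subunit of the mitochondrial ribosome and 29 named Mrps for the small subunit. The mitochondrial ribosome sits inside the mitochondrion and translates the few messenger RNAs of mitochondrial DNA, which encode core subunits of the respiratory chain and of the ATP synthase. All of its proteins are made in the cytosol from nuclear genes and imported, while its ribosomal RNAs come from mitochondrial DNA, so the ribosome is built from products of both genomes. Microglia, the resident macrophages of the brain, alter their metabolism when they respond to amyloid deposits, and oxidative phosphorylation needs this ribosome.

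The study sorted CD45mid CD11b+ cells from brains of C57BL/6 mice aged 9 months and sequenced their total RNA in 20 libraries from 6 conditions. It asks how the complement receptor C3aR, encoded by C3ar1, acts on microglia in a model of amyloid deposition. The amyloid model, APP-KI, is the APP NL-G-F knock-in: the mouse App gene is edited in place so that its amyloid-beta stretch reads as in humans, and 3 mutations known from families with Alzheimer's disease (Swedish, Arctic, Iberian) are added. Both sexes were used, and the labels do not give the sex of each animal. Without selection on C3aR there were 3 wild type (WT) libraries, numbered 4 to 6, 3 APP-KI libraries, also numbered 4 to 6, 3 libraries from C3aR knock-out mice (C3aRKO) and 5 from mice with both changes (APP-KI;C3aRKO). A further 3 WT and 3 APP-KI libraries held C3aR-positive cells, sorted by the red fluorescence of a Td-tomato reporter from littermates of a cross that carries the floxed reporter allele of C3ar1. The C3aRKO line is a germline knock-out, so C3aR was missing from every cell type.

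A library held from 13939559 to 76608464 reads on genes, of which 0.0978% to 0.141% were on members. The deposited values are read counts divided by the 75th percentile of the counts of that library, with no correction for gene length. Here each value was multiplied by 35.2 and is called the scaled value, and a log2 fold change is the fitted difference of log2(scaled value + 1) between groups. The scaled value is relative, so a difference is one against the other genes of the same cells. By the first 2 digits of their library numbers, the C3aR-positive libraries form series 22, and the unselected libraries fall into series 24 and 26, each with all 4 genotypes.

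Before any comparison, 4 libraries stood apart, all of series 24: APP-KI replicate 4, C3aRKO replicates 1 and 2, and APP-KI;C3aRKO replicate 1. They had reads on 12387 to 13250 genes, fewer than the 14888 to 21219 of the other 16, and are called sparse here, with the limit set at 14000 genes after the data were seen. Their totals of 42239056 to 69483570 reads were not low, and their reads missed some members altogether. Counted over the 78 members, 6 had no read in APP-KI replicate 4, 6 in C3aRKO replicate 1, 9 in C3aRKO replicate 2 and 12 in APP-KI;C3aRKO replicate 1, against 0 or 1 in each of the other libraries. APP-KI replicate 5, also of series 24, stood apart the other way, with reads on 21219 genes. The counts of called members in unselected cells are therefore given with and without the 4 sparse libraries, a choice made after seeing the data. For C3aRKO against WT, and for C3ar1 loss compared between APP-KI and WT, they are given with all libraries only.

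**Figure D1:**
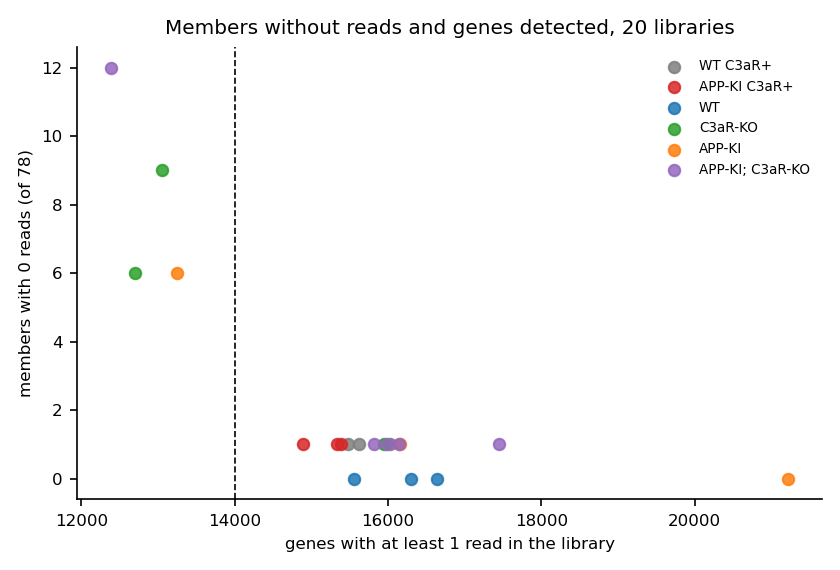
Number of the 78 members without a read in each of the 20 libraries, against the number of genes with at least 1 read, with a dashed line at 14000 genes. The 4 libraries left of the line had 6, 6, 9 and 12 members without reads, and every library to the right had 0 or 1.

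The members fall into groups by the place of their protein. Proteins of the large subunit that have a bacterial counterpart take 30 members, and 21 are proteins of the large subunit found only in mitochondria. The small subunit has 15 members with a bacterial counterpart and 11 without. Mrps36, named as a ribosomal protein, is known as a subunit of the 2-oxoglutarate dehydrogenase complex of the citric acid cycle. It is kept apart from these groups but stays in the counts over all members. Mrps18a and Mrps30 carry small subunit names but sit in the large subunit, where they are counted.

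In the genome the members are scattered over 17 chromosomes, with 11 on chromosome 11, 8 on chromosome 17 and 7 on chromosome 6. Mrpl46 and Mrps11 lie head to head on chromosome 7 and share 12.2% and 7.97% of their exonic bases, so reads in that stretch cannot be assigned with certainty. Exons of other coding genes cover 88.0% of the exonic bases of Mrpl53, 77.8% of Mrps34 and 69.8% of Mrps25, and their values are as uncertain. Named pseudogenes exist for Mrps36 (3), Mrpl23 (1) and Mrpl48 (1), which can take or give reads. Mrpl51 lies 2.34 Mb from C3ar1 on chromosome 6, a distance at which strain sequence can travel with a knock-out allele.

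Mrps15, a small subunit protein, had the highest scaled value as a mean over 20 libraries, at 45.3, followed by Mrpl52 at 43.4 and Mrpl37 at 38.3, both large subunit proteins specific to mitochondria. This order depends on the libraries: over the 16 that are not sparse Mrpl52 came first at 44.2 and Mrps15 next at 43.3, and in unselected WT Mrpl37 and Mrpl24, at 34.8 and 34.4, lay above Mrpl52 at 32.9. Mrps15 held 39.7, 49.3 and 26.9 in the C3aR-positive WT libraries and 57.5, 60.7 and 37.6 in the C3aR-positive APP-KI libraries. In the unselected cells Mrps15 was 40.4, 44.7 and 42.6 in WT, 53.9, 36.0 and 46.2 in APP-KI, 28.8, 33.8 and 47.1 in C3aRKO, and 95.2, 40.3, 45.8, 42.6 and 35.9 in APP-KI;C3aRKO. Its APP-KI and WT values overlapped in both sorts, and the single value of 95.2 was in sparse replicate 1 of APP-KI;C3aRKO. Mrpl37 lay between 29.7 in APP-KI;C3aRKO replicate 5 and 72.2 in APP-KI replicate 4, the second of them a sparse library. Divided by exonic length in kilobases, the order in WT was Mrpl52 at 29.7 scaled value per kilobase, Mrps15 at 25.1, Mrps21 at 20.8 and Mrpl12 at 18.9, while Mrpl37 came to 7.80. Mrpl53 was the lowest at a mean of 0.00748, with reads in 4 of the 20 libraries and at most 0.0628, and it did not pass the filter, which asks for a mean of 1 or more. The other 77 members passed it in every fit and are the members tested below. Mrps36, at a mean of 2.76, and Mrps18c, at 3.60, were the next lowest.

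The members differed little between replicates among the unselected libraries that were not sparse. The median standard deviation (SD) of log2(scaled value + 1) over members was 0.0965 among the 3 unselected WT libraries, beside 0.108 over all tested genes. Among the APP-KI libraries it was 0.349 with sparse replicate 4 and 0.0808 for the other 2, and in APP-KI;C3aRKO it was 0.340 with sparse replicate 1 and 0.112 without. Over all tested genes the SD without the sparse libraries was higher, at 0.152 in APP-KI and 0.146 in APP-KI;C3aRKO. In C3aRKO, where 2 of 3 libraries are sparse, the members had an SD of 0.577. The C3aR-positive libraries lay between, at 0.346 in WT and 0.464 in APP-KI, both above the 0.238 and 0.306 of all tested genes.

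The labels were checked against the gene that was knocked out. C3ar1 was 276, 330 and 340 in unselected WT, 165, 315 and 388 in APP-KI, 68.1, 39.9 and 65.7 in C3aRKO, and 80.4, 77.4, 69.4, 75.9 and 61.9 in APP-KI;C3aRKO. C3ar1 reads were thus lower in every knock-out library than in every unselected library with the gene, but not at 0. Among the C3aR-positive libraries C3ar1 was 71.0, 81.2 and 37.6 in WT and 383, 251 and 201 in APP-KI, so the cells sorted as C3aR-positive from WT brains held fewer C3ar1 reads than unselected WT cells did.

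In C3aR-positive cells the question is how the members differ between an amyloid-bearing and a WT brain. A gene is called here at an adjusted p under 0.05, two-sided, from limma over all 12315 genes tested. Of the 77 members 1 was called higher and 0 lower, where 13% of all tested genes were higher and 9.7% lower. Without adjustment, limma at p under 0.05 gave 4 members higher and 7 lower, beside 2201 and 2428 of all 12315 tested genes. On the recovered reads edgeR called 2 higher and 0 lower (14.4% and 5.35% of all tested genes). The median log2 fold change of the members was -0.15, beside -0.17 over all tested genes, and it went to -0.27 without APP-KI replicate 1 and to -0.08 without WT replicate 3. With median ratio scaling both medians were -0.03, and the share of called genes that were higher went from 57.3% to 75.3%. That scaling itself centres the median log ratio of each library, so it cannot show where the shift came from. The cause of the shift was not tested.

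Mrpl54, a large subunit protein specific to mitochondria, was the called member. Its scaled values were 26.8, 13.4 and 25.6 in C3aR-positive APP-KI and 7.23, 7.18 and 5.23 in C3aR-positive WT. All 3 APP-KI values were above all 3 WT values, with replicate 2 the lowest of the APP-KI libraries. The log2 fold change of Mrpl54 was 1.56 ± 0.35 (standard error, SE; n = 3 and 3; adjusted p = 0.0118, limma). Mrpl30, a large subunit protein with a bacterial counterpart, was 18.7, 23.1 and 22.8 in APP-KI against 9.45, 14.01 and 12.8 in WT. Its groups did not overlap, its log2 fold change of 0.79 had an adjusted p of 0.0607 in limma, and edgeR called it.

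The largest lower values among members whose groups did not overlap were not called. Mrps6, a small subunit protein with a bacterial counterpart, was 2.22, 5.33 and 0.943 in C3aR-positive APP-KI and 7.97, 6.20 and 16.2 in WT (log2 fold change -1.60, adjusted p = 0.0617, limma). Mrps11 was 4.76, 6.46 and 1.73 in APP-KI and 11.8, 11.1 and 9.15 in WT (-1.25, adjusted p = 0.0725, limma). All 3 APP-KI values lay under all 3 WT values for both. Mrpl40 and Mrpl46, of the central protuberance of the large subunit, had log2 fold changes of -1.17 and -1.005 with adjusted p of 0.0715 and 0.113 (limma, n = 3 and 3, all 3 APP-KI values lower). Without overlap between the groups, 5 members were higher and 14 lower in APP-KI, of 77, beside 17.8% and 25.7% of all tested genes. Leaving out a library changed the count of called members from 1 to 2 in 3 cases: without WT replicate 1 Mrpl13 was called as well, without APP-KI replicate 1 Mrps10, and without APP-KI replicate 2 Mrps6.

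By role, the C3aR-positive comparison gave no group of members with more than that 1 call. Large subunit members with a bacterial counterpart had 0 of 30 called and a median of -0.06 on the log2 scale, and those specific to mitochondria 1 of 20 and -0.26. Small subunit members had 0 of 15 called (median -0.25) with a bacterial counterpart and 0 of 11 (median -0.30) without. Mrps36 was 5.32, 1.95 and 5.11 in APP-KI and 1.29, 0.0976 and 1.99 in WT. Replicate 2 of APP-KI lay within the WT range, and the log2 fold change of 1.31 was not called (adjusted p = 0.127, limma, n = 3 and 3).

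**Figure D2:**
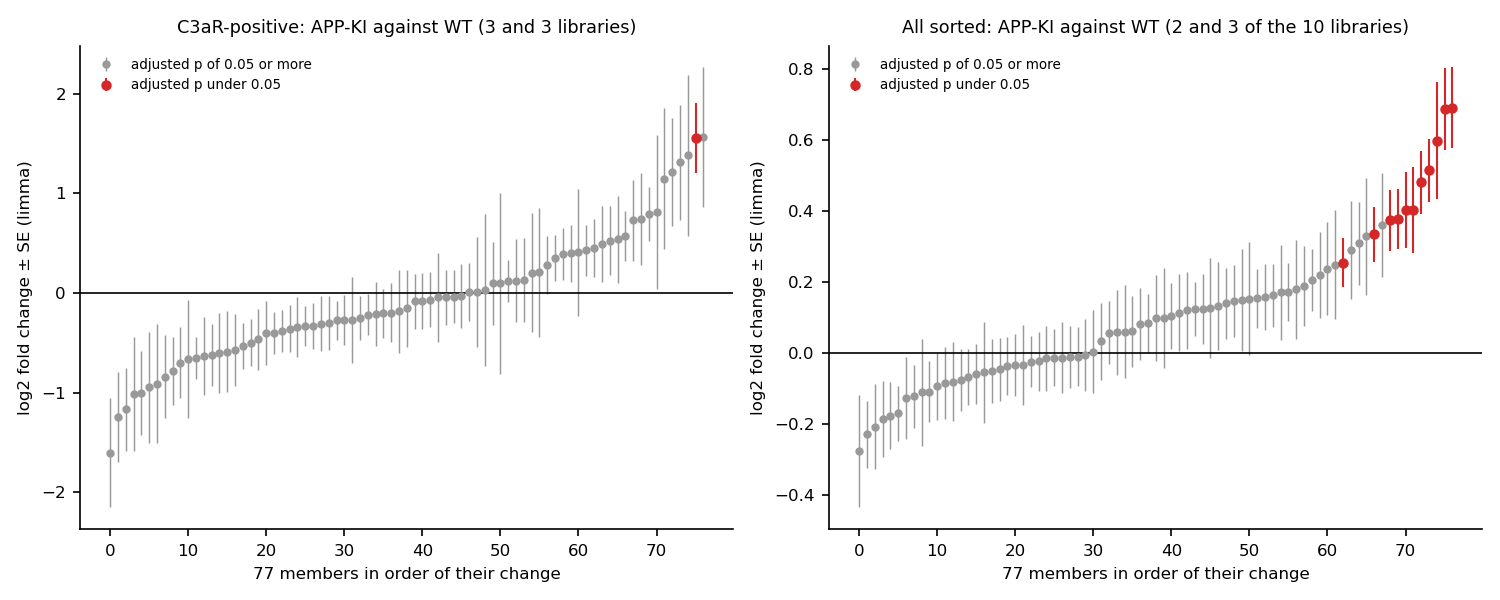
Log2 fold change of each of the 77 tested members with its standard error, in order of size, for APP-KI against WT in C3aR-positive cells (left; 3 and 3 libraries) and in unselected cells without the sparse libraries (right; 2 and 3 libraries), with called members in red. On the left 1 member is called and on the right 11, all of them higher.

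In unselected cells the same question was put to 14 libraries fitted together with a term for library series. With all 14, 0 of the 77 members were called higher and 0 lower in APP-KI against WT by limma, where 2.22% and 1.93% of all 12409 tested genes were. At an unadjusted p under 0.05 the counts were 0 and 0, beside 738 and 805 of all tested genes. By edgeR 0 members were called (1.81% and 1.48% of all tested genes). With any single library of the 14 left out, sparse APP-KI replicate 4 included, 0 members were called as well. Mrps27, a small subunit protein specific to mitochondria, was 0.970, 10.2 and 10.8 in APP-KI and 11.5, 13.5 and 11.7 in WT, with the sparse library at the lowest value and a log2 fold change of -0.94 (adjusted p = 0.585, limma; 3 of 3 APP-KI values lower). That value was -0.19 without APP-KI replicate 4, -1.45 without replicate 6 and -1.37 without replicate 5, and -0.18 without the 4 sparse libraries.

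Without the 4 sparse libraries, 10 remained for this comparison: 2 of APP-KI, 3 of WT, 1 of C3aRKO and 4 of APP-KI;C3aRKO, still with the series term. In them 11 of 77 members were called higher and 0 lower in APP-KI against WT by limma, beside 13.2% and 14.7% of all 12566 tested genes. The share of members called higher, 14.3%, was near that background. Without adjustment, limma put 14 members higher and 1 lower at p under 0.05, beside 2325 and 2623 of all 12566 tested genes. By edgeR the same 11 members were called, where 13% of all tested genes were higher and 12.5% lower. The median log2 fold change was 0.10 for members and 0.00 for all tested genes. In bulk cells, fewer cells of a type and less RNA per cell cannot be told apart for any of these genes.

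Among the large subunit members with a bacterial counterpart 4 of 30 rose: Mrpl30, Mrpl13, Mrpl20 and Mrpl4. Mrpl30 was 19.6 and 24.4 in APP-KI replicates 5 and 6 against 11.9, 15.2 and 14.9 in WT, and 10.2 in sparse replicate 4. Both remaining APP-KI values lay above the WT range, and the sparse one lay below it. The log2 fold change of Mrpl30 was 0.69 ± 0.11 (SE; n = 2 and 3; adjusted p = 0.00222, limma). Within series 24, with 1 library of each group, its difference from WT was 0.68, and within series 26, with 1 of APP-KI and 2 of WT, it was 0.66. With no series term Mrpl30 was not called. Mrpl13 (0.38), Mrpl20 (0.37) and Mrpl4 (0.25), as log2 fold changes, were higher in 2 of 2 APP-KI libraries as well.

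Of the large subunit members specific to mitochondria 3 of 20 rose: Mrpl52, Mrpl54 and Mrpl51. Mrpl52 was 45.8 and 57.5 in APP-KI replicates 5 and 6 and 31.4, 30.6 and 36.6 in WT, with 20.3 in sparse replicate 4. The sparse library was thus under every WT value while the other 2 were above. The log2 fold change of Mrpl52 was 0.69 ± 0.12 (SE; n = 2 and 3; adjusted p = 0.00252, limma), with 0.53 within series 24 and 0.76 within series 26. Mrpl54 was 17.4 and 18.5 in APP-KI replicates 5 and 6 and 11.3, 13.4 and 12.99 in WT, with 7.88 in sparse replicate 4. Again the 2 were above all WT values and the sparse library below them, and the log2 fold change of Mrpl54 was 0.51 ± 0.09 (SE; n = 2 and 3; adjusted p = 0.00297, limma). Mrpl51 rose by a log2 fold change of 0.40.

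In the small subunit 1 of 15 members with a bacterial counterpart and 2 of 11 without rose. Mrps21 was 21.8 and 21.7 in APP-KI replicates 5 and 6 and 15.8, 15.9 and 14.4 in WT, with 16.4 in sparse replicate 4. All 3 APP-KI values were above the WT range, and the log2 fold change of Mrps21 was 0.48 ± 0.09 (SE; n = 2 and 3 without the sparse library; adjusted p = 0.00404, limma). Mrps28 was 10.2 and 8.93 in APP-KI replicates 5 and 6, 10.7 in replicate 4, and 7.18, 6.80 and 6.92 in WT. Each of the 3 APP-KI values was above each WT value (log2 fold change 0.40, adjusted p = 0.0379, limma, n = 2 and 3). The call of Mrps28 was lost when any of the 5 compared libraries was left out, without APP-KI;C3aRKO replicate 3, with no filter, with no series term and at an adjusted p under 0.0005. Mrps23 rose by a log2 fold change of 0.33 although its groups overlapped, at 14.2 and 18.4 in APP-KI and 11.4, 13.95 and 14.2 in WT.

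Mrps36, outside the ribosome, was called higher with the settings used here. It was 4.52 and 4.31 in APP-KI replicates 5 and 6 and 2.06, 3.18 and 2.89 in WT, with 2.78 in sparse replicate 4. The 2 lay above the WT range and the sparse library within it, and the log2 fold change of Mrps36 was 0.60 ± 0.17 (SE; n = 2 and 3; adjusted p = 0.0260, limma). It was called in 8 of 16 other settings, and not with no filter, no series term or an adjusted p under 0.0005, nor without WT replicate 4, 5 or 6, APP-KI replicate 5 or APP-KI;C3aRKO replicate 3.

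With 2 APP-KI libraries the count of 11 depends on single libraries. Without APP-KI replicate 5, the library with reads on 21219 genes, 5 of the 11 were called: Mrpl30, Mrpl52, Mrpl54, Mrps21 and Mrps23. In that fit the lone APP-KI library is assumed to vary like the other groups. Without WT replicate 5 the count was 7 and without WT replicate 6 it was 7, and it was 8 without WT replicate 4, without APP-KI replicate 6 and without APP-KI;C3aRKO replicate 3. Without APP-KI;C3aRKO replicate 5 it was 12, and with no series term it was 5, with Mrpl20, Mrpl30, Mrpl51, Mrps23, Mrps28 and Mrps36 lost. Without overlap between the groups, 21 members were higher and 7 lower, beside 21.9% and 25.4% of all tested genes.

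**Figure D3:**
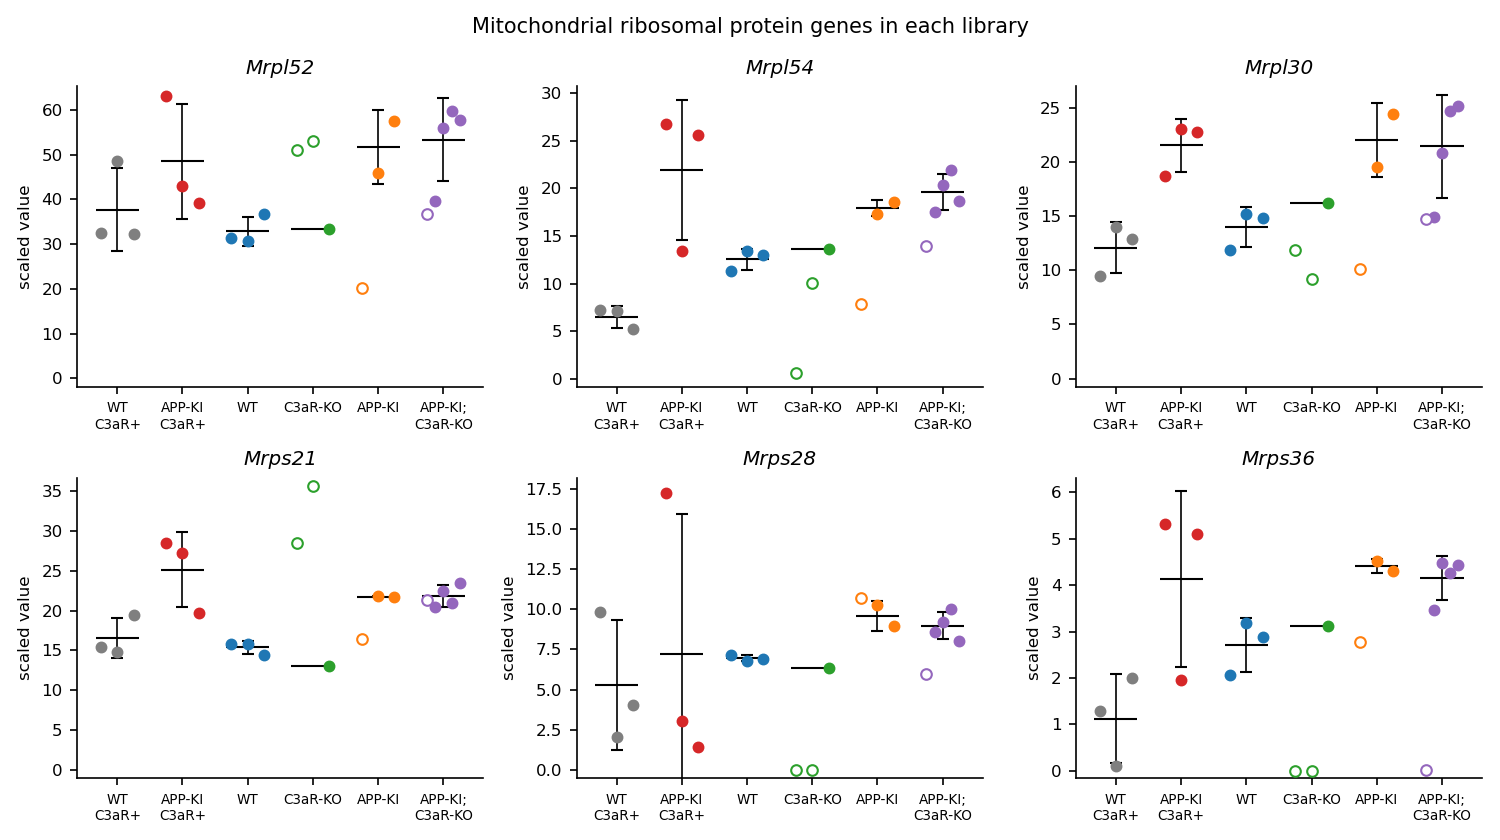
Scaled value of 6 members in each library of the 6 conditions, with sparse libraries as open circles and the mean ± SD of the other libraries as lines. For Mrpl52 the filled APP-KI points at 45.8 and 57.5 lie above the WT points at 31.4, 30.6 and 36.6, and the open point at 20.3 lies below them.

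Loss of C3ar1 was compared in WT and in APP-KI mice. In C3aRKO against WT with all 14 libraries 0 of 77 members were called higher and 0 lower by limma (0% and 0.00806% of all tested genes). At an unadjusted p under 0.05 the counts were 0 and 1, beside 123 and 221 of all tested genes, and edgeR called 0. Leaving out C3aRKO replicate 3 leaves only its sparse libraries and gave 1 called member. Without the sparse libraries only C3aRKO replicate 3 is left of its group, and limma assumes that it varies like the other groups. The counts of that fit are left out here, and edgeR was not run on it. In the fit of 14 libraries Mrps28 (log2 fold change -1.81) and Mrpl16 (-1.42) lay furthest below WT among members whose groups did not overlap, and both had no reads in a sparse library. Without the sparse libraries they were -0.10 and -0.16. Mrps28 was 0, 0 and 6.36 in C3aRKO, where 0 reads allow a scaled value of up to 0.0442 in replicate 1 and 0.0472 in replicate 2 (3 reads, counting error only), against 7.18, 6.80 and 6.92 in WT. Mrpl16, a large subunit protein, was 11.6, 0 and 16.5 in C3aRKO and 18.3, 18.8 and 17.8 in WT. In both genes the library that was not sparse, replicate 3, lay nearest to WT.

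In APP-KI;C3aRKO against APP-KI 0 of 77 members were called higher and 0 lower by limma in the 14 libraries (0% and 0.00806% of all tested genes). At an unadjusted p under 0.05 the counts were 0 and 0, beside 38 and 109 of all tested genes, and edgeR called 0. In the 10 libraries limma again called 0 and 0 (0% and 0.00796%), and edgeR 0, with 0 and 1 at an unadjusted p under 0.05, beside 125 and 269 of all tested genes. Mrpl33, a large subunit protein, had the largest value there among members whose groups did not overlap. It was 24.1 and 20.1 in APP-KI replicates 5 and 6 and 18.2, 17.8, 16.4 and 12.2 in APP-KI;C3aRKO replicates 2 to 5. All 4 were below both (log2 fold change -0.40, adjusted p = 0.832, limma). The effect of C3ar1 loss in APP-KI minus that in WT, the test of whether the 2 losses differ, called 0 members by limma (0% and 0% of all tested genes) and 0 by edgeR. At an unadjusted p under 0.05 the counts were 0 and 0, beside 111 and 92 of all tested genes. Without the sparse libraries this difference rests on a lone C3aRKO library, and its counts are left out.

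For the 4 members that rose most clearly in APP-KI, the values without C3ar1 are given here. They were chosen by their rise, and likeness between the groups was not tested. Mrpl52 was 36.7, 39.6, 56.0, 59.8 and 57.8 in APP-KI;C3aRKO replicates 1 to 5, Mrpl54 13.9, 17.5, 20.3, 21.9 and 18.7, and Mrps21 21.3, 20.4, 22.4, 20.9 and 23.4. All 5 values of these 3 genes were above all 3 WT values, sparse replicate 1 included. Mrpl30 was 14.7, 15.0, 20.9, 24.7 and 25.2, with the 2 libraries of series 24 inside the WT range. In C3aRKO Mrpl52 was 51.0, 52.9 and 33.5, Mrpl54 0.604, 10.1 and 13.7, Mrps21 28.5, 35.6 and 13.1, and Mrpl30 11.9, 9.17 and 16.2. The sparse C3aRKO libraries, listed before replicate 3, were the high ones for Mrpl52 and Mrps21 and the low ones for Mrpl54 and Mrpl30.

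APP-KI;C3aRKO against WT was compared after the data were seen and shares its WT libraries with the comparison of APP-KI. With all 14 libraries 0 of 77 members were called higher and 0 lower by limma (2.81% and 2.39% of all tested genes), and 0 by edgeR (2.43% and 2.1%). At an unadjusted p under 0.05 the counts were 0 and 0, beside 790 and 881 of all tested genes. Without the 4 sparse libraries 12 members were called higher and 1 lower, beside 15.3% and 17.8% of all tested genes. Mrpl54 rose by a log2 fold change of 0.59 ± 0.07 (SE; n = 4 and 3; adjusted p = 0.000391, limma; 4 of 4 values above WT), Mrpl52 by 0.64 and Mrps21 by 0.47. The others called higher were Mrpl12, Mrpl13, Mrpl20, Mrpl30, Mrpl42, Mrpl58, Mrps23, Mrps28 and Mrps36, of which Mrpl30 and Mrps23 overlapped with WT.

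Mrps27 was the member called lower in APP-KI;C3aRKO against WT. It was 9.10, 10.5, 10.2 and 10.4 in APP-KI;C3aRKO replicates 2 to 5 and 11.5, 13.5 and 11.7 in WT, with 8.85 in sparse replicate 1. All 5 lay below the WT range, and the log2 fold change was -0.27 ± 0.08 (SE; n = 4 and 3; adjusted p = 0.0291, limma). Mrps27 was called in 8 of 17 other settings, and not with median ratio scaling, no filter, no series term or an adjusted p under 0.0005, nor without WT replicate 4 or 5 or without APP-KI;C3aRKO replicate 2, 3 or 4. Of the 13 called members, 6 were called without WT replicate 5, 7 without APP-KI;C3aRKO replicate 3, 7 without its replicate 4 and 7 with no series term. The count was 9 without APP-KI;C3aRKO replicate 2, 9 without WT replicate 6, 10 without WT replicate 4, 11 without APP-KI;C3aRKO replicate 5, 12 without APP-KI replicate 6 and 14 without C3aRKO replicate 3.

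APP-KI;C3aRKO against C3aRKO asks for the effect of the amyloid model where C3ar1 is missing. In the 14 libraries 1 member was called higher and 0 lower, beside 3.96% and 2.97% of all tested genes. It was Mrps28, at 5.97, 8.60, 9.22, 10.035 and 8.06 in APP-KI;C3aRKO and 0, 0 and 6.36 in C3aRKO. The groups overlapped at replicate 3 of C3aRKO and replicate 1 of APP-KI;C3aRKO, and the 2 values of 0 were those of sparse libraries (log2 fold change 2.08, adjusted p = 0.0233, limma; edgeR called 0, beside 3.12% and 2.16% of all tested genes). Mrps28 was called in 14 of 25 other settings. The settings that lost the call included leaving out C3aRKO replicate 1, C3aRKO replicate 2 or APP-KI;C3aRKO replicate 2. They also included no filter, the replicate number as a block, only the 2 groups and an adjusted p under 0.0005. Without the sparse libraries the log2 fold change of Mrps28 was 0.43, and it was not called (adjusted p = 0.0596, limma). Without the sparse libraries, again with the lone C3aRKO library, limma called 13 members higher and 1 lower, beside 13.2% and 18.2% of all tested genes.

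Sorting on C3aR cannot be told apart from mouse line and library series, since every C3aR-positive library came from reporter littermates and series 22. In WT 0 of 77 members were called higher and 0 lower in C3aR-positive against unselected cells by limma (0% and 0% of all tested genes). At an unadjusted p under 0.05 the counts were 1 and 4, beside 126 and 426 of all 12592 tested genes, and edgeR called 0. In APP-KI limma called 0 higher and 0 lower (0% and 0%), and edgeR called 0. At an unadjusted p under 0.05 the counts there were 0 and 1, beside 200 and 457 of all tested genes. Without overlap between the sorts, 3 members were higher and 8 lower in WT, beside 9.74% and 13.2% of all tested genes. In APP-KI these counts were 0 and 9, beside 1.86% and 4.21%. Mrps6 had the largest fall of those in APP-KI (log2 fold change -1.38, adjusted p = 0.819, limma). The median log2 fold change of the members in APP-KI went from -0.03 to -0.25 without sparse replicate 4. The difference between the sorts in the effect of APP-KI, C3aR-positive minus unselected, called 0 members by limma (0% and 0%) and 0 by edgeR. At an unadjusted p under 0.05 the counts were 1 and 2, beside 836 and 644 of all tested genes. The median of this difference over members was -0.04, and -0.23 without the sparse library.

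Mrps12, which lies at the decoding centre of the small subunit, had the largest value of the WT comparison of sorts. It was 0.289, 3.42 and 4.88 in C3aR-positive WT, 8.14, 9.88 and 10.5 in unselected WT, and 18.2, 10.9 and 1.57 in C3aR-positive APP-KI. The 2 sorts of WT did not overlap (log2 fold change -1.70, adjusted p = 0.996, limma, n = 3 and 3), and C3aR-positive APP-KI spanned both. The value went to -1.04 without C3aR-positive WT replicate 1 and to -2.13 without replicate 3. Mrps12 was 11.6, 8.59 and 11.2 in unselected APP-KI, 0, 0 and 10.5 in C3aRKO and 0, 8.40, 10.9, 11.2 and 11.8 in APP-KI;C3aRKO, with all 3 values of 0 in sparse libraries. Mrps5, its neighbour near the decoding centre, was 28.1, 28.5 and 26.4 in C3aR-positive WT and 21.9, 23.5 and 18.0 in C3aR-positive APP-KI. The latter were all lower (log2 fold change -0.38, adjusted p = 0.213, limma, n = 3 and 3), and in unselected cells Mrps5 was 25.9, 23.3 and 22.4 in APP-KI and 26.9, 24.9 and 24.4 in WT.

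The stalk of the large subunit, where translation factors bind, is made of Mrpl10, Mrpl11 and Mrpl12. Mrpl12, which forms the flexible arms of the stalk, was 29.1, 28.8 and 28.9 in unselected WT, 8.79, 26.5 and 36.0 in APP-KI, 14.3, 22.4 and 19.7 in C3aRKO, and 18.5, 31.5, 37.4, 36.5 and 34.5 in APP-KI;C3aRKO. Every C3aRKO value was under every WT value, the first 2 of them from sparse libraries. Mrpl12 was not called there (log2 fold change -0.46, adjusted p = 0.995, limma). In C3aRKO against WT 2 of 77 members were higher and 10 lower without overlap, beside 9.16% and 9.31% of all tested genes. APP-KI;C3aRKO was above WT in the 4 libraries that were not sparse, where Mrpl12 was called (log2 fold change 0.25, adjusted p = 0.0448, limma, n = 4 and 3). The call was lost with no filter, with no series term, at an adjusted p under 0.0005, without WT replicate 5 or 6 and without APP-KI;C3aRKO replicate 2, 3 or 4. In C3aR-positive cells Mrpl12 was 42.3, 26.9 and 22.2 in APP-KI and 16.1, 22.1 and 26.7 in WT, which overlapped. Mrpl10, the base of the stalk, was 22.4, 22.5 and 20.1 in unselected WT, 6.13, 20.3 and 21.0 in APP-KI, 17.5, 18.9 and 22.6 in C3aRKO and 0, 19.5, 21.95, 21.6 and 20.6 in APP-KI;C3aRKO. Its values of 6.13 and 0 were in sparse libraries, and the rest lay close together. Mrpl10 was 35.2, 9.06 and 10.6 in C3aR-positive APP-KI and 8.84, 30.9 and 7.83 in C3aR-positive WT, a spread within each group wider than the difference between them. Mrpl11 was 11.4, 15.8 and 13.3 in C3aR-positive APP-KI and 11.2, 10.4 and 11.1 in WT, without overlap but not called (log2 fold change 0.28). Mrpl11 ran from 11.7 to 13.2 in unselected WT and from 7.50 to 14.9 in unselected APP-KI, with 7.50 in sparse replicate 4. Without the sparse libraries its APP-KI and WT values did not overlap, and it was not called (log2 fold change 0.20, adjusted p = 0.117, limma).

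Mrps18a, Mrps18b and Mrps18c are paralogues, of which a in the large subunit and b and c in the small subunit each hold a place of their own. Per kilobase of exon in WT they stood at 7.37, 3.28 and 3.90. Mrps18a was 31.3, 26.3 and 24.04 in unselected WT and 26.9, 28.6 and 26.2 in APP-KI, within the WT range. Mrps18b was 7.09, 6.29 and 7.16 in WT and 14.5, 9.24 and 6.86 in APP-KI, and Mrps18c was 4.53, 4.16 and 3.91 in WT and 0.253, 5.13 and 4.46 in APP-KI. Sparse APP-KI replicate 4 was the highest for Mrps18b and the lowest for Mrps18c, and none of the 3 paralogues was called in any comparison above.

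The members were set beside 2 other families, where 13% of all tested genes were higher in C3aR-positive cells, 13.2% in unselected APP-KI and 15.3% in APP-KI;C3aRKO against WT, the last 2 in the 10 libraries. In C3aR-positive APP-KI against WT 54 of 78 tested cytosolic ribosomal protein genes rose and 0 fell (median log2 fold change 1.19), and 33 of 78 nuclear genes for subunits of oxidative phosphorylation rose and 0 fell (median 0.69), beside 1 of 77 members (median -0.15). In unselected cells without the sparse libraries 63 of 79 cytosolic ribosomal protein genes rose (median 0.75), 42 of 78 oxidative phosphorylation genes (median 0.36) and 11 of 77 members (median 0.10). With all 14 libraries the counts were 10 of 78, 3 of 78 and 0 of 77, where 2.22% of all tested genes were higher. In APP-KI;C3aRKO against WT, 10 libraries, they were 62 of 79, 49 of 78 and 12 of 77. With median ratio scaling in the C3aR-positive cells they were 56 of 78, 36 of 78 and 2 of 77, where 1845 of all 12298 tested genes were higher. No test of the difference between families was made, and genes of a family are not independent replicates. In the C3aR-positive libraries the members had a median SD of 0.346 in WT and 0.464 in APP-KI, above the 0.238 and 0.306 of all tested genes. A wider spread makes a call less likely at a given change, so the chance of a call can differ between families.

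**Figure D4:**
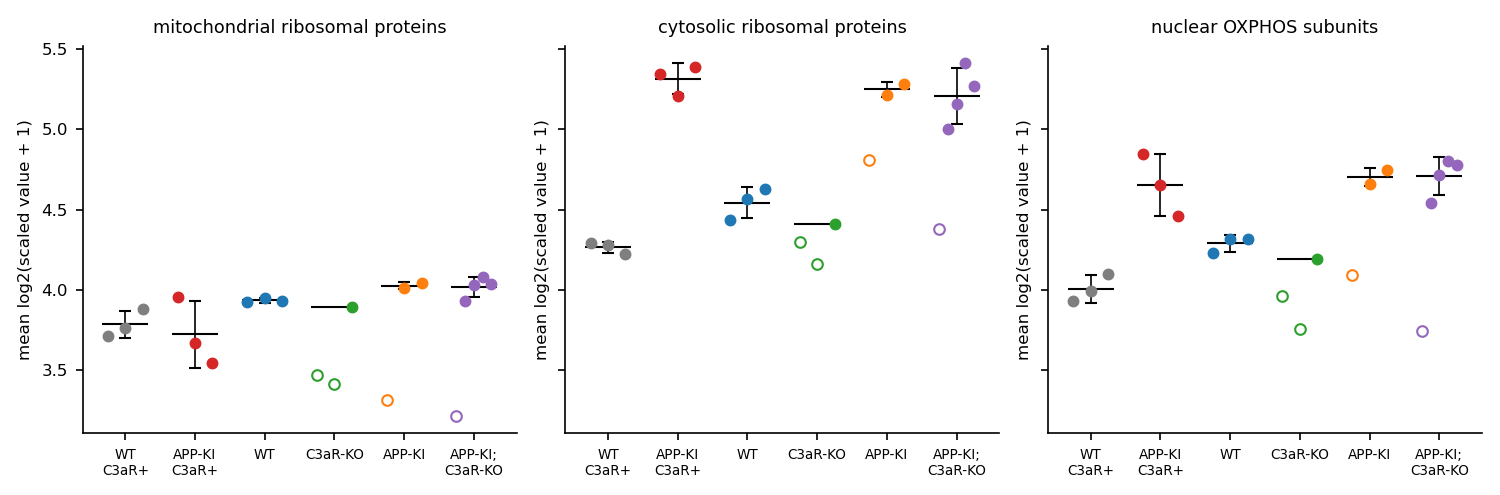
Mean log2(scaled value + 1) over the mitochondrial ribosomal protein genes, the cytosolic ribosomal protein genes and the nuclear oxidative phosphorylation genes in each library of the 6 conditions, with sparse libraries as open circles and the mean ± SD of the others as lines. Over members the C3aR-positive APP-KI libraries stand at 3.96, 3.67 and 3.55 and those of WT at 3.71, 3.77 and 3.88, which overlap.

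The length of called members was set beside that of all tested genes. The 11 members that rose in unselected APP-KI without the sparse libraries ran from 739 to 7936 bases. Exonic length had a median of 2533 bases over the 77 tested members, and the 11 that rose in unselected APP-KI without the sparse libraries had a median of 1560, with 7 of them among the 39 shorter members. Of all tested genes up to 2533 bases long 18.5% rose in that comparison, and 11.9% of longer ones. A length was known for 98.5% of genes. The part of length in the result was not tested.

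Markers of other cells moved with APP-KI as well, and their part in the result was not tested. All 5 markers of border macrophages (Mrc1, Cd163, Lyve1, Pf4 and F13a1) fell in unselected APP-KI without the sparse libraries (median -1.36 on the log2 scale), and in C3aR-positive cells 4 of 5 fell. Their summed scaled value was 427, 1147 and 961 in WT replicates 4 to 6, and 247 and 256 in APP-KI replicates 5 and 6, with Mrc1 the most abundant in each and none of the 5 at 0. In C3aR-positive cells the sum was 674, 608 and 454 in WT and 385, 176 and 177 in APP-KI, again with Mrc1 the most abundant and none at 0. Of genes marking microglia, P2ry12, Tmem119, Cx3cr1 and Sall1 fell in both comparisons, and Csf1r and Itgam fell in the unselected cells. Of endothelial markers Flt1 rose and Pecam1 fell in both comparisons, of astrocyte markers Gfap rose and Slc1a3 fell, of oligodendrocyte markers Mbp rose, and 0 of 5 markers of neutrophils and monocytes were called. In APP-KI;C3aRKO against WT, 10 libraries, all 5 border macrophage markers fell as well (median -1.62), as did P2ry12, Tmem119, Cx3cr1, Sall1, Pecam1, Slc1a3 and Ccr2. There Flt1, Gfap and Mbp rose. Only 1 of 7 neuronal markers and 1 of 4 markers of T and NK cells passed the filter, so these cells were hardly tested. The 7 neuronal markers summed to 21.9 in APP-KI replicate 5, with Gad1 the most abundant, and to at most 5.97 elsewhere. The 4 markers of T and NK cells summed to 24.5 in that library, with Cd8a the most abundant, to 14.7 in APP-KI;C3aRKO replicate 2, and to 0.681, 0.595 and 1.35 in WT and 0.629 in APP-KI replicate 6. APP-KI replicate 5 is 1 of the 2 libraries behind the 11 calls above.

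Other genes of mitochondrial translation were counted against the same shares of all tested genes. In C3aR-positive APP-KI 1 gene of all these lists was called, where 13% of all tested genes were higher and 9.7% lower. It was Gtpbp10, a GTPase of large subunit assembly, at 3.20, 6.11 and 2.67 in APP-KI against 10.2, 13.4 and 10.8 in WT. Every APP-KI value was below every WT value (log2 fold change -1.37, adjusted p = 0.0343, limma, n = 3 and 3). Gtpbp10 was 1 of 21 genes for assembly and ribosomal RNA modification, while 0 of 6 mitoribosome proteins with other names, 0 of 12 translation factors, 0 of 17 mitochondrial aminoacyl-tRNA synthetases, 0 of 10 genes for transcription and replication of mitochondrial DNA and 0 of 9 regulators of mitochondrial biogenesis were called there by limma.

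In unselected APP-KI without the sparse libraries, where 13.2% of all tested genes were higher and 14.7% lower, of the mitoribosome proteins with other names Aurkaip1 rose by a log2 fold change of 0.35 (1 of 6). Of the assembly genes the GTPase Mtg1 rose by 0.55 and the RNA helicase Dhx30 had -0.30 (2 of 21). Polrmt, the RNA polymerase of mitochondria, was called at -0.34 (1 of 9 for mitochondrial DNA), and of the regulators the coactivator Ppargc1b rose by 0.57 and Yy1 had -0.30 (2 of 8). Translation factors (0 of 12) and aminoacyl-tRNA synthetases (0 of 17) had no call by limma. APP-KI;C3aRKO against WT in the 10 libraries has the same WT libraries as reference, with 15.3% of all tested genes higher and 17.8% lower, and called 16 genes of these lists. Of mitoribosome proteins with other names (3 of 6) Aurkaip1 rose by 0.34, Chchd1 rose by 0.27 and Ptcd3 had -0.23. Of assembly genes (4 of 21) Mtg1 rose by 0.35, Trmt2b rose by 0.25, Dhx30 had -0.29 and Eral1 had -0.22. Of the synthetases (3 of 17) Iars2 rose by 0.21, Aars2 had -0.36 and Hars2 had -0.21, and of the genes for mitochondrial DNA (1 of 9) Polrmt had -0.36. Of the regulators (5 of 8) Ppargc1b rose by 0.35, Myc rose by 0.21, Esrra had -0.37, Nrf1 had -0.29 and Gabpb1 had -0.20, while translation factors had 0 of 12 by limma. In APP-KI;C3aRKO against C3aRKO with all 14 libraries 3.96% of all tested genes were higher and 2.97% lower, and C3aRKO replicates 1 and 2 are sparse. In that fit Chchd1, a small subunit protein, rose by 1.98 (1 of 6), and Dhx30 and the GTPase Mtg2 had -0.49 and -0.87 (2 of 21).

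Hif1a, which encodes a subunit of the transcription factor HIF-1, rose with the amyloid model. It was 639, 862 and 1061 in C3aR-positive APP-KI and 206, 196 and 170 in WT (log2 fold change 2.13 ± 0.18, SE, n = 3 and 3, adjusted p = 6.76e-05, limma; 3 of 3 higher). In unselected cells Hif1a was 462, 585 and 870 in APP-KI and 142, 157 and 179 in WT, and 447, 620, 1010, 849 and 1193 in APP-KI;C3aRKO. Every value with the amyloid model was above every WT value, sparse libraries included.

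Promoters of the members were read from RefSeq (GRCm38.p6), as the 250 bases before the RefSeq gene start, and searched on both strands for short cores of factors known to act on mitochondrial genes. Of the 78 members 69 matched a promoter, with 75 windows in all and up to 4 for a member. A member with several windows, such as Mrpl48, counted as holding a core if any of them held it. By GENCODE M21 some genes start further upstream, so that the windows of Mrpl51 and Mrpl35, among others, lie inside the gene. The ETS core bound by GABP, CCGGAAG, was in 18 of 69 members (26.1%), against 7.83% of all 27025 genes with a promoter, 15.9% of the 9900 expressed ones (mean scaled value 1 or more), 29.0% of cytosolic ribosomal protein genes and 17.6% of oxidative phosphorylation genes. The NRF1 core, the 10 letters in capitals in the Mrpl9 sequence printed last, was in 3 members (Mrpl9, Mrpl32 and Mrpl39; 4.35%), against 0.877% of all genes and 1.93% of the expressed ones. The YY1 core AAGATGGCG was in 2 members (2.90%, against 0.710% of all and 1.37% of the expressed ones), and the E-box CACGTG of MYC in 5 (7.25%, against 6.86% and 9.86%). The HIF core ACGTG, which the E-box holds, was in 14 members (20.3%), against 18.5% of all genes and 25.1% of the expressed ones. A match is a description of letters in this window and not a site.

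Of the 15 members called in the 10 libraries in APP-KI or APP-KI;C3aRKO against WT, Mrpl4, Mrpl13, Mrpl54 and Mrps28 had no matched promoter, and of the other 11 Mrpl51, Mrpl52, Mrpl58 and Mrps27 held the ETS core. Of those whose promoters are printed here, Mrpl52 held it, Mrpl30 and Mrps21 held neither that core nor the NRF1 core, and Mrpl9, which was not called, is shown for the NRF1 core. The promoters lie on GRCm38.p6 at chr14:54426659-54426908 (Mrpl52, plus strand), chr1:37890227-37890476 (Mrpl30, plus strand), chr3:95871515-95871764 (Mrps21, minus strand) and chr3:94443086-94443335 (Mrpl9, plus strand). Each is written from 5′ to 3′ on the strand of its gene, with the matched core in capitals, first base at -47 from the gene start in Mrpl52 and -28 in Mrpl9.
Mrpl52: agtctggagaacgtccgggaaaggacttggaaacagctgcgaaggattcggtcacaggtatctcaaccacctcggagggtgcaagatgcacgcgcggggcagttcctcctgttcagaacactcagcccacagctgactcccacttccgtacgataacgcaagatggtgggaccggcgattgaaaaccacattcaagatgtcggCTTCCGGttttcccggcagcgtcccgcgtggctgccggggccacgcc
Mrpl30: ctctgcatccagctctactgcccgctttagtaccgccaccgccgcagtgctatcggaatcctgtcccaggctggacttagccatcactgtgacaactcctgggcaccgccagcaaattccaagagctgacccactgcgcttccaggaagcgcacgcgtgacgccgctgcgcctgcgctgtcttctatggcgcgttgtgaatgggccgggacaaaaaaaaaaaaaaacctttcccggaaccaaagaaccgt
Mrps21: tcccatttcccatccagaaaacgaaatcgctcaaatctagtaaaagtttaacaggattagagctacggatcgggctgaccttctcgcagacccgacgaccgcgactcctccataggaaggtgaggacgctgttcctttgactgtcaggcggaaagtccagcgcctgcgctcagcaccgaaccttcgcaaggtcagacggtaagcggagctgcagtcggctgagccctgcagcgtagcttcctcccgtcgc
Mrpl9: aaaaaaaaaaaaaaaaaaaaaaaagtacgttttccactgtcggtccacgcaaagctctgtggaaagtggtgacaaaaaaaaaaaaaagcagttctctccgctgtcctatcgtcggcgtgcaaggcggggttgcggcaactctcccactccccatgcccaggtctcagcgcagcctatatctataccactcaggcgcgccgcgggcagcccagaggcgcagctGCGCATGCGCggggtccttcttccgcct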

How the data were processed

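RNA of sorted cells was measured in 20 libraries. The authors trimmed reads with cutadapt, aligned them with TopHat2 to UCSC mm10 and counted them with featureCounts. The deposited values are a signal, the read count divided by the 75th percentile of its library, although they are named FPKM; dividing by the step of each library gave whole reads for 100% of values (tolerance 0.05 reads). Library preparation used molecular identifiers, and the labels do not say whether they entered the counts. Intervals for 0 reads cover counting error only.

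Values were multiplied by 35.2, with a pseudocount of 1, and limma tested each gene whose mean in the fitted libraries reached 1 (limma 3.58.1 with a mean-variance trend, R 4.3.3), with Benjamini-Hochberg adjustment over all genes tested. edgeR 4.0.16 was run on the recovered reads. The 6 C3aR-positive libraries, the 14 unselected libraries (with library series as a term) and the 12 WT and APP-KI libraries of both sorts were each fitted together. The members and gene lists were chosen with earlier results of these data known. For each comparison the rule was to name up to 5 called members with the largest rise and 5 with the largest fall. Their groups must not overlap. Where fewer than 5 were called, those with the largest change and no overlap were listed, but not all of these are named. Further named are the 3 highest and 3 lowest members, the stalk, lists of 5 or fewer and Mrps18a to c. Mrpl30 and Mrps10 in C3aR-positive cells, the further members listed by name and the length of called members were chosen after their values were seen. The alternatives changed the pseudocount to 0.1, dropped the filter or raised it to 5, or used median ratio scaling, edgeR, an adjusted p under 0.0005, each library left out, replicate number as a block, no series term and only the 2 groups compared. Leaving out the 4 sparse libraries, or these and APP-KI replicate 5, the comparisons in 10 libraries and the comparison of APP-KI;C3aRKO with WT were chosen after seeing the data. Positions and lengths are from GENCODE M21, tables were made with Python 3.11.15, pandas 2.3.3 and numpy 2.4.6, and figures with matplotlib 3.10.9.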

Additional observations from a re-analysis of the deposited data

Results flagged for a closer look

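In APP-KI;C3aRKO, the only condition with more than 3 libraries, 16 of 33 quantities tested (the mean over members and named members) had a single library far from the other 4, and each time it was sparse replicate 1, where chance flags about 1 in 20 groups. The quantities share that library and are not independent. Its mean log2(scaled value + 1) over members was 3.22, against 3.93 to 4.08 in the others. Its scaled value was 0 for Mrpl14, 0 for Mrpl19, 0 for Mrpl34, 0 for Mrpl46, 0 for Mrps6 and 0 for Mrps12, where the other 4 libraries held at least 5.16, 11.1, 7.48, 10.7, 6.98 and 8.40, and it was 0.0226, a single read, for Mrps36, against 3.46 to 4.47. Lower values were also 7.65 for Mrpl16 (others 16.7 to 19.3), 7.04 for Mrpl2 (17.6 to 19.7), 6.31 for Mrps11 (7.86 to 8.48) and 10.5 for Mrps30 (19.1 to 19.5). It was higher than the others for Mrpl42 at 26.6 (19.0 to 20.7), Mrpl50 at 25.2 (12.5 to 14.1), Mrps14 at 25.4 (15.7 to 18.3) and Mrps2 at 42.9 (23.0 to 26.5). The cause was not tested.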

How the results depend on the processing

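Of 537 alternative values for counts and medians 42 moved, a count by over 1.5 times or to or from 0 and a median by more than the spread between replicates; smaller changes are not listed. Further, 1 named member that was not called changed sign. In C3aR-positive APP-KI against WT the 1 called member became 3 with a filter of 5, 2 with median ratio scaling, 2 with edgeR, 0 at an adjusted p under 0.0005 and 1 to 2 with a library left out. In unselected APP-KI against WT 0 became 11 without the sparse libraries and 5 without these and APP-KI replicate 5. In the 10 libraries the 11 became 0 at an adjusted p under 0.0005, 5 with no series term and 5 to 12 with a library left out. In C3aRKO against WT the count was 0 to 1 with a library left out. In APP-KI;C3aRKO against C3aRKO the 1 became 0 with no filter, with edgeR, at the stricter threshold, with the replicate block and with only the 2 groups, 14 without the sparse libraries, 15 without these and APP-KI replicate 5, and 0 to 1 with a library left out. In APP-KI;C3aRKO against WT the 0 became 1 with only the 2 groups, 13 without the sparse libraries and 13 without these and APP-KI replicate 5; in the 10 libraries the 13 became 7 with no filter, 1 at the stricter threshold, 7 with no series term and 6 to 14 with a library left out.

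Replicate number as a block moved the median over members to 0.16 in C3aRKO against WT (main -0.19), where Mrpl34 went to 0.30, and to 0.21 in APP-KI;C3aRKO against APP-KI (main -0.01). Residuals of replicates with the same number correlated over genes at 0.02, 0.04 and -0.01 in the C3aR-positive pairs, 0.25, 0.09 and 0.09 in WT with APP-KI, -0.0022, 0.08 and 0.22 in C3aRKO with APP-KI;C3aRKO, and -0.29 and 0.01 in APP-KI with APP-KI;C3aRKO. Pairs with different numbers ran from -0.05 to 0.02, -0.22 to 0.20, -0.23 to 0.24 and -0.30 to 0.45. With a library left out the median was -0.0103 to 0.351 for the difference between the 2 losses of C3ar1, -0.246 to 0.0711 for the sorts in APP-KI and -0.23 to 0.13 for the difference between sorts. Without the sparse library the last 2 were -0.25 and -0.23, and the last was -0.23 without APP-KI replicate 5 as well. The cause was not tested. With 3 to 5 libraries a group, and 1 to 4 of the unselected groups once the 4 sparse ones are left out, calls such as that of Mrps36, a member of low level, hang on single libraries.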
